A study of Mus musculus with 20 samples.

Results

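The RNA of p53 and of 8 genes that feed back on it or answer to it directly was followed in bone marrow and kidney of mice given oxaliplatin. The 9 genes were Trp53, which encodes p53 itself, its inhibitors Mdm2, Mdm4 and Ppm1d, and the direct targets Ccng1, Zmat3, Phlda3, Aen and Ei24. They were found by gene symbol in the count tables of both tissues, 9 of 55486 genes listed, and all 9 passed the filter on low counts in both tissues. Oxaliplatin is a platinum drug used against colorectal cancer that crosslinks DNA.

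The vehicle groups received 5% dextrose and the oxaliplatin groups 10 mg/kg oxaliplatin in the same vehicle, injected into the peritoneum weekly for 8 weeks. The methods of the study describe 10-week-old C57BL/6 mice of both sexes with no engineered allele, and marrow spun out of the long bones of the hind leg 6 days after dosing ended. Each of the 4 groups held 5 libraries, 20 in all, labelled as biological replicates, and collection of the kidneys is not described. Counts assigned to genes ran from 30660153 to 41140527 per library in marrow and from 24393007 to 30925430 in kidney. All 20 libraries held between 2031 and 7154 counts on Y-linked genes and at most 100 on Xist, so no library had the pattern of a female. Defining markers of the labelled tissue were present in every library, with summed neutrophil markers of 10284 to 27184 CPM (counts scaled to a common library total) in marrow and summed proximal tubule markers of 15013 to 21688 CPM in kidney.

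p53 is a transcription factor that is made all the time and destroyed all the time. Mdm2, a ubiquitin ligase, marks it for degradation, Mdm4 binds and blocks its activating domain, and the phosphatase encoded by Ppm1d strips the phosphates that damage-signalling kinases place on p53 and on themselves. p53 binds DNA in or near the genes for Mdm2, Ppm1d, Ccng1 and others and raises their transcription, so that the response to DNA damage builds its own brake. Because p53 is controlled mostly at the level of the protein, a change in its activity is usually read from its targets rather than from its own RNA, and protein was not measured here.

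The sites through which p53 acts are 10-base elements, made of 3 purines, a C, 2 bases that are A or T, a G and 3 pyrimidines, and a full site is a pair of them. The element reads the same way on both strands, so 1 search covered both. RefSeq promoter windows of GRCm38.p6, from 250 bases before to 50 bases after each start, were given for 8 of the 9 genes; Zmat3 had no entry. An element with no mismatch lay in the window of 6 of these 8 genes, beside 8.356% of 32851 windows and 9.554% of 27025 genes in the whole table. The windows of Phlda3 and Mdm4 held none, which says only that these letters are not in this stretch. The 6 genes are shown because they include both genes that rose and genes that did not, with Cdkn1a, the best known p53 target, as a reference; capitals mark the element or the pair, a further element of Cdkn1a upstream of its pair is left in lower case, and all run 5′ to 3′ on the strand of the gene.
Trp53, chr11:69580234-69580343, plus strand, element starting 75 bases before the start: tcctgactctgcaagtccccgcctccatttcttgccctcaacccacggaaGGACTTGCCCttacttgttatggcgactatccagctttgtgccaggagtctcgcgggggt
Mdm2, chr10:117710885-117710994, minus strand, element starting 186 bases before the start: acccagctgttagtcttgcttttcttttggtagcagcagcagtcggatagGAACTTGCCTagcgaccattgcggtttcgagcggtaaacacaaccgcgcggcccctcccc
Ppm1d, chr11:85311072-85311181, plus strand, element starting 132 bases before the start: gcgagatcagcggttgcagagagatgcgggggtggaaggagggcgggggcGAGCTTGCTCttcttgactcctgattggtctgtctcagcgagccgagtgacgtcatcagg
Ccng1, chr11:40755412-40755531, minus strand, pair starting 195 bases before the start: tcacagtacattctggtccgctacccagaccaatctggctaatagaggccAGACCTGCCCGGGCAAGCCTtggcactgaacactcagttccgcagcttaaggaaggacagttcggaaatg
Aen, chr7:78895927-78895956, plus strand, element starting 11 bases after the start: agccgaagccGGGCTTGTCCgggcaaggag
Ei24, chr9:36797335-36797354, minus strand, element starting 10 bases before the start: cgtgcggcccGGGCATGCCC
Cdkn1a, chr17:29090878-29090978, plus strand, pair starting 51 bases before the start: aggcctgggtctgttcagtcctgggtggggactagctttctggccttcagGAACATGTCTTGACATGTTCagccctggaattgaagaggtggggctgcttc

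Ccng1 was the only 1 of the 8 genes whose window held a 20-base pair of adjacent elements with at most 1 mismatch, a pattern found in 29 windows of the table, 0.088%, the window of Cdkn1a shown above among them. That window was chosen for its closer match. A further window of Cdkn1a, around a start downstream, at chr17:29093519-29093818, held no element, and its best pair had 5 mismatches. Aen also had a further window. Distances for Cdkn1a and Aen are to the start of the window shown. The matches are a description of letters and no binding was measured in these samples.

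In each tissue, a gene was called changed at a Benjamini-Hochberg adjusted p under 0.05, from edgeR's quasi-likelihood test over all genes tested, together with a fold change beyond 1.5. In marrow 6 of the 9 genes were called, beside 23.3% of all 22363 genes tested; Ccng1, Zmat3, Phlda3, Aen and Ei24 rose, beside 11.6% of all genes, and Ppm1d fell, beside 11.8%. In kidney 4 of the 9 were called, beside 11.5% of all 19293 genes tested; Ccng1, Zmat3, Phlda3 and Aen rose, beside 7.68% of all genes, and none was called lower, beside 3.81%. The median log2 fold change of the 9 genes was 0.64 in marrow and 0.58 in kidney, against -0.04 and 0.02 over all genes tested.

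**Figure D1:**
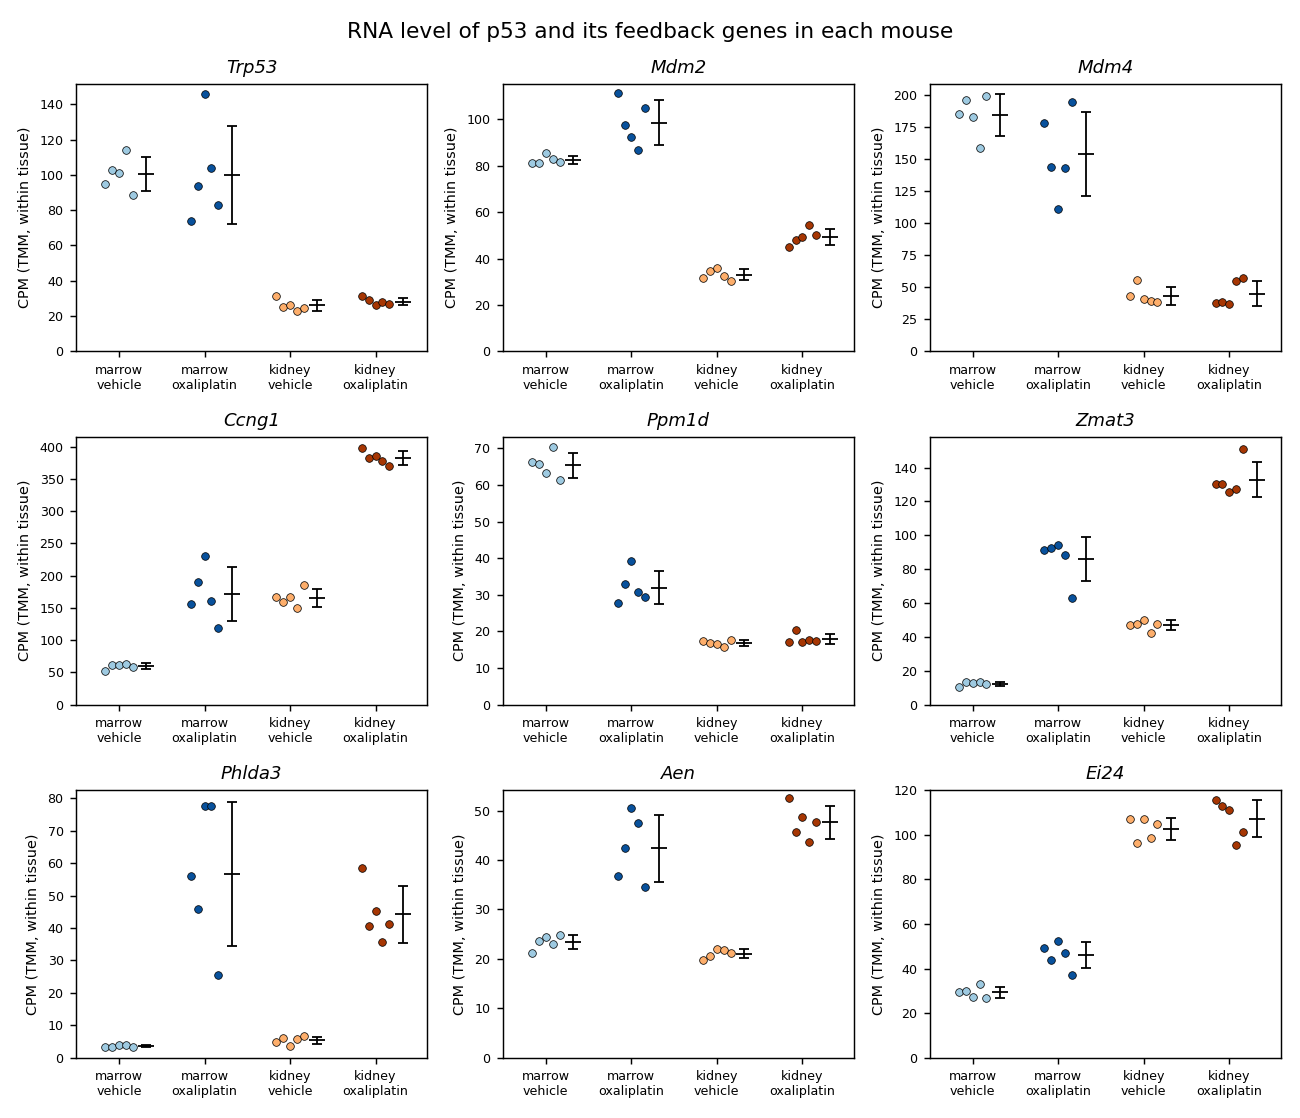
RNA level of the 9 genes in each mouse, in CPM scaled by TMM within a tissue, on linear axes from 0; points are single mice (5 per group) and the bar beside them is the mean with its SD. Ccng1, Zmat3, Phlda3 and Aen are higher in every oxaliplatin-treated mouse of both tissues, Ppm1d is lower in marrow, where its 5 treated mice lie between 27.7 and 39.1 CPM, and Trp53 and Mdm4 overlap between the groups in both tissues.

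Trp53 RNA itself did not pass the test in either tissue. The gene, at chr11:69580359-69591873 on GRCm38, stood at 94.7, 103, 101.3, 114 and 88.7 CPM in marrow of vehicle mice 1 to 5 and at 73.6, 93.9, 146, 104 and 83.2 CPM in marrow of oxaliplatin mice 1 to 5. The groups overlapped on both sides, with means of 100.4 ± 9.63 and 100.1 ± 27.9 CPM (SD, n = 5), and the treated mice spread more widely than the vehicle mice. The log2 fold change was -0.00 (SE 0.16, adjusted p = 0.987), and the 95% interval of the fold, 0.787 to 1.26, does not reach the 1.5-fold threshold on either side; the sign of so small a value turned with the scaling. In kidney Trp53 stood at 26.1 ± 3.13 CPM in vehicle and 28.2 ± 1.94 CPM in oxaliplatin mice, a log2 fold change of 0.11 (SE 0.086, adjusted p = 0.345, 95% interval of the fold 0.954 to 1.23). In whole tissue, fewer cells of a type and less RNA per cell cannot be told apart, and this holds for every level given here.

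The inhibitors of p53 went different ways. Mdm2, at chr10:117688875-117710758, was higher in all 5 treated mice than in any vehicle mouse of the same tissue. In marrow the vehicle mice stood at 81.1, 81.2, 85.5, 83.0 and 81.7 CPM and the oxaliplatin mice at 111, 97.6, 92.5, 86.6 and 105 CPM. That is a 1.19-fold difference (log2 0.26, SE 0.083, adjusted p = 0.0301), below the threshold on fold change. The adjusted p lay between 0.0146 and 0.0762 when each mouse was left out in turn. It was over 0.05 in every fit that left out a vehicle mouse, and without oxaliplatin mouse 1 (0.0762) or 2 (0.0561). In kidney the vehicle mice stood at 31.7, 34.8, 35.9, 32.4 and 30.2 CPM and the oxaliplatin mice at 44.9, 48.0, 49.4, 54.3 and 50.2 CPM. Mdm2 was thus 1.495-fold higher in kidney (log2 0.58, SE 0.072, adjusted p = 2.3e-05), just short of the 1.5-fold threshold and so not called, although its adjusted p was small; it was called when kidney vehicle mouse 2 or 3 or oxaliplatin mouse 1 or 2 was left out.

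Mdm4, at chr1:132959484-133030561, did not pass the test in either tissue. Marrow held 185, 196, 183, 158 and 199 CPM in vehicle mice and 178, 144, 111, 143 and 194 CPM in oxaliplatin mice (log2 fold change -0.26, SE 0.14, adjusted p = 0.175, 95% interval of the fold 0.680 to 1.03). The 2 groups overlapped, and oxaliplatin mouse 3, highest for Trp53, was the lowest for Mdm4. Kidney held 43.4 ± 6.88 CPM in vehicle and 45.2 ± 9.90 CPM in oxaliplatin mice (log2 fold change 0.06, SE 0.15, adjusted p = 0.807), with vehicle mouse 2 at 55.4 CPM and oxaliplatin mice 4 and 5 at 54.7 and 57.2 CPM above the rest.

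Ppm1d, at chr11:85311244-85347066, was the 1 gene of the 9 that fell, and it fell in marrow. Vehicle marrow stood at 66.3, 65.8, 63.2, 70.4 and 61.4 CPM and oxaliplatin marrow at 27.7, 33.0, 39.1, 30.6 and 29.4 CPM. The groups lay far apart, at 65.4 ± 3.43 and 31.97 ± 4.43 CPM, a 2.05-fold lower level (log2 -1.03, SE 0.10, adjusted p = 6.5e-06). In kidney the levels were 16.9 ± 0.800 and 17.9 ± 1.36 CPM (log2 fold change 0.09, SE 0.081, adjusted p = 0.457, 95% interval of the fold 0.942 to 1.19).

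Markers of other cell types moved with the treatment in marrow. All 9 late erythroid markers were called lower, their sum going from 30049 to 53224 CPM in vehicle mice to 3462 to 10095 CPM in oxaliplatin mice, and 7 of 8 early erythroid and 7 of 8 B cell markers were called lower. Of 8 markers of cycling cells 7 were called lower, from a summed 4505 to 5641 CPM to 1736 to 3001 CPM, while all 6 megakaryocyte markers were called higher and no neutrophil marker was called. Also in marrow, 2 of 8 T and NK cell markers were called lower, their sum going from 88.2 to 121 CPM to 40.9 to 64.7 CPM, and 3 of 8 monocyte and macrophage markers, 2 of 8 markers of stroma, bone and endothelium and both podocyte markers tested were called higher. In kidney 4 of 7 monocyte and macrophage markers tested were called lower and 3 of 7 markers of cycling cells, 4 of 5 podocyte markers and 5 of 7 markers of stroma, bone and endothelium were called higher. Beside these counts, 11.6% of all genes tested were called higher and 11.8% lower in marrow, and 7.68% higher and 3.81% lower in kidney. Of 8 proximal tubule markers in kidney 2 were called lower, with a median log2 fold change of 0.02 over the list. Their sum went from 18592 to 21688 CPM in vehicle mice to 15013 to 18664 CPM in oxaliplatin mice, which overlapped. Of 5 markers of tubular injury tested in kidney 2 were called higher, and their sum went from 495 to 564 CPM in vehicle mice to 704 to 791 CPM in oxaliplatin mice. No marker list had a gene at 0 counts in all mice of a tissue, and the part of these shifts in the levels of the 9 genes was not tested.

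Of the 9 genes, Phlda3 had the largest change. It encodes a small pleckstrin-homology protein that competes with the kinase Akt for membrane lipids and so restrains survival signalling. The gene, at chr1:135766119-135769136, stood at 3.20, 3.46, 4.03, 3.82 and 3.28 CPM in vehicle marrow and at 55.9, 45.9, 77.7, 77.7 and 25.6 CPM in oxaliplatin marrow. All treated mice were far above all vehicle mice, and mouse 5 was the lowest of them. The rise was 15.9-fold (log2 3.99, SE 0.28, adjusted p = 8.3e-07), rank 89 by log2 fold change among the genes tested. In kidney it went from 4.89, 5.98, 3.76, 5.80 and 6.64 CPM to 58.6, 40.5, 45.4, 35.6 and 41.1 CPM. That rise was 8.15-fold (log2 3.03, SE 0.16, adjusted p = 2.7e-08) and ranked 35 by log2 fold change in that tissue, with mouse 1 the highest.

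Zmat3, which encodes a zinc finger protein that binds RNA and shapes the stability and splicing of transcripts, followed. It lies at chr3:32334792-32366014. Vehicle marrow stood at 10.4, 13.4, 12.5, 13.1 and 12.1 CPM and oxaliplatin marrow at 91.1, 92.3, 94.5, 88.5 and 62.8 CPM. Of the treated mice, 4 lay close together and mouse 5 below them, and the rise was 6.96-fold (log2 2.80, SE 0.13, adjusted p = 2.7e-08), rank 10 by p over all genes tested. In kidney the vehicle mice stood at 46.9, 47.5, 50.2, 42.2 and 47.6 CPM and the oxaliplatin mice at 130.2, 130.5, 126, 127 and 151 CPM. The kidney rise was 2.84-fold (log2 1.505, SE 0.070, adjusted p = 2.7e-10), rank 5 by p, and here mouse 5 was the highest.

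Ccng1 encodes cyclin G1, which brings a protein phosphatase to Mdm2 and so takes part in the feedback on p53. At chr11:40748552-40755311, it stood at 51.5, 62.0, 61.8, 63.2 and 58.4 CPM in vehicle marrow and at 157, 189.7, 231, 161 and 118 CPM in oxaliplatin marrow. The groups did not overlap, and the rise was 2.88-fold (log2 1.53, SE 0.15, adjusted p = 7.8e-06). Kidney held 167, 159, 167, 149 and 186 CPM in vehicle and 398, 382, 386, 378 and 369.8 CPM in oxaliplatin mice. The treated kidneys were close to each other, with a coefficient of variation of 2.73% against 24.6% in treated marrow, and the rise was 2.31-fold (log2 1.21, SE 0.068, adjusted p = 3.5e-09).

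Aen, an exonuclease of the nucleolus and nucleus that p53 induces and that promotes apoptosis, lies at chr7:78895854-78911209. In marrow it went from 21.1, 23.5, 24.5, 22.9 and 24.9 CPM to 36.8, 42.4, 50.6, 47.5 and 34.6 CPM. Every treated mouse was above every vehicle mouse, a 1.81-fold rise (log2 0.86, SE 0.11, adjusted p = 8.0e-05). In kidney it went from 21.0 ± 0.916 CPM to 47.7 ± 3.34 CPM, a 2.27-fold rise (log2 1.18, SE 0.070, adjusted p = 8.4e-09), again with no overlap.

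Ei24, a membrane protein of the endoplasmic reticulum first found as a transcript induced by a DNA-damaging drug, rose in marrow. It lies at chr9:36779159-36797393 and shares 324 exon bases with the antisense gene Gm26787, which held 0 to 11 counts in any library. Vehicle marrow stood at 29.7, 30.1, 27.1, 33.1 and 26.8 CPM and oxaliplatin marrow at 49.0, 43.7, 52.6, 47.1 and 37.2 CPM. The rise was 1.56-fold (log2 0.64, SE 0.11, adjusted p = 4.1e-04), the smallest of the called rises. Kidney stood at 103 ± 5.08 CPM in vehicle and 107 ± 8.40 CPM in oxaliplatin mice, which overlapped (log2 fold change 0.06, SE 0.067, adjusted p = 0.511, 95% interval of the fold 0.947 to 1.15). On the scale shared by all libraries, every vehicle kidney was above every treated marrow.

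Counting only whether the groups overlapped, 7 of the 9 genes were separated in marrow, 6 higher and Ppm1d lower, beside 24.9% of all genes tested, and 5 in kidney, all higher, beside 20.7%. The gene that this measure added to the calls was Mdm2, in both tissues.

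The mice of a treated group did not all stand at the same level, and the same mice recurred at the ends of the order for several genes. Among Ccng1, Zmat3, Phlda3, Aen and Ei24, marrow mouse 5 was the lowest of the 5 treated mice in 5 of 5 genes and mouse 3 the highest in 4 of 5. Trp53 and Ppm1d were also highest in mouse 3, whereas Mdm2 and Mdm4 were not: Mdm2 was highest in mouse 1, and Mdm4 in mouse 5. In mouse 5 the summed neutrophil markers were the highest of the treated marrows, 27184 CPM against 10284 CPM in mouse 3. Mouse 4 was close to mouse 3, at 11883 CPM, and mice 1 and 2 stood at 22859 and 21657 CPM. The summed markers of cycling cells were 2085 CPM in mouse 5 against 3001 CPM in mouse 3, but mouse 1 was the lowest, at 1736 CPM. Those of stroma, bone and endothelium were lowest in mouse 5, at 1876 CPM. Mouse 3 had the highest sums of early erythroid (1524 CPM) and megakaryocyte markers (3034 CPM) and the lowest of monocyte and macrophage markers (1060 CPM). The part of these sums in the order was not tested. In kidney, mouse 1 was the highest in 4 of these 5 genes, with Zmat3 the exception. Of those 4, Ei24 was not called in kidney, and Ccng1 ran only from 370 to 398 CPM in the treated kidneys. The values of a library share its depth and scaling, and no test was made on these orders.

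**Figure D2:**
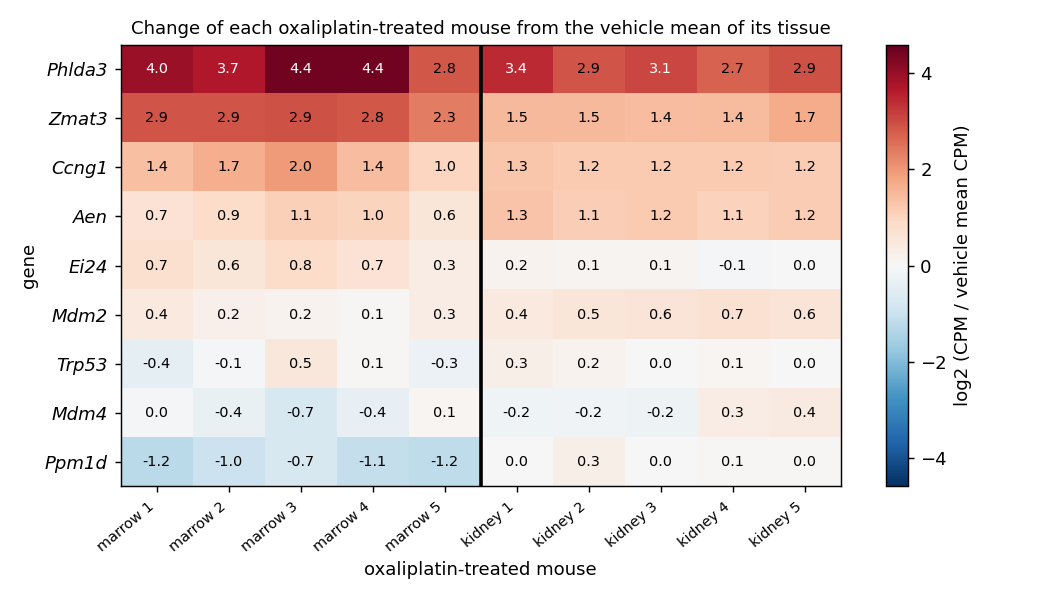
Change of each oxaliplatin-treated mouse, as log2 of its CPM over the mean CPM of the 5 vehicle mice of its tissue, with 1 row per gene and 1 column per mouse; red is higher and blue lower. Mouse 5 is the palest of the marrow columns for the 5 genes that rose in marrow, with Phlda3 in marrow ranging from 2.8 to 4.4, and Ppm1d is blue in marrow and near 0 in kidney.

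The question of whether the tissues responded differently was put to its own test, the tissue by treatment interaction in all 20 libraries, with adjustment over 24321 genes. The response of 5 of the 9 genes differed at an adjusted p under 0.05, beside 30.1% of all genes tested. Zmat3 rose less in kidney than in marrow, by -1.36 in log2 fold change (SE 0.15, adjusted p = 4.4e-07), as did Phlda3, by -1.03 (SE 0.33, adjusted p = 0.0221). Ei24 differed by -0.64 (SE 0.13, adjusted p = 8.5e-04), being called in marrow and not in kidney. Ppm1d differed by 1.05 (SE 0.14, adjusted p = 5.9e-06), its fall being seen in marrow.

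Mdm2 was the fifth, with a response larger by 0.27 in kidney (SE 0.10), but its adjusted p of 0.0479 was close to the threshold and was over it in 16 of the 20 fits that left out a library. The difference for Phlda3 had an adjusted p of 0.0534 without marrow oxaliplatin mouse 3. Ccng1 differed by -0.39 (SE 0.18, adjusted p = 0.117) and passed the threshold, at -0.54 (adjusted p = 0.0104), without marrow oxaliplatin mouse 5. Aen differed by 0.26 (SE 0.15, adjusted p = 0.204), and passed it, at 0.36 (adjusted p = 0.0439), without marrow oxaliplatin mouse 3. For Trp53 the difference was 0.05 (95% interval -0.38 to 0.47) and for Mdm4 0.26 (95% interval -0.14 to 0.67), neither past the test. Markers of cycling cells were called lower in marrow and higher in kidney, and markers of stroma, bone and endothelium were called higher in both. Podocyte markers were called higher in kidney, and in marrow, where they are not read as podocytes, only 2 of the 5 were tested. The part of these shifts in the tissue differences was not tested.

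**Figure D3:**
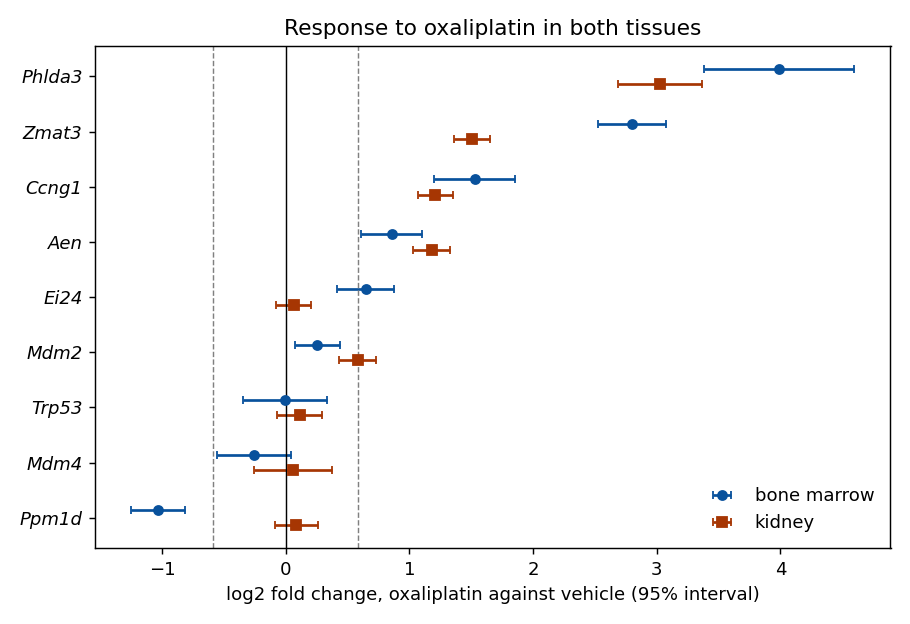
Log2 fold change of oxaliplatin against vehicle for the 9 genes in bone marrow (circles) and kidney (squares), with 95% intervals from the test on 10 mice per tissue; the solid line is no change and the dashed lines are 1.5-fold. Phlda3 and Zmat3 lie farthest right in both tissues, and Ppm1d lies left of the dashed line in marrow at -1.03 and near 0 in kidney at 0.09.

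Levels were set side by side across genes as CPM per kilobase of exon, with all 20 libraries on 1 scale. In vehicle marrow Trp53 was the highest, at 21.2 ± 1.69 CPM per kilobase (SD, n = 5), followed by Ppm1d at 17.6, Ccng1 at 14.4, Mdm2 at 13.9 and Mdm4 at 10.6, with Ei24 at 5.15, Aen at 3.45, Phlda3 at 1.95 and Zmat3 at 0.920 below them. Neighbours in this order did not overlap, except Ccng1 and Mdm2. In oxaliplatin marrow Ccng1, at 43.5, and Phlda3, at 32.5, stood above Trp53, at 22.1, though the ranges of these neighbours overlapped. Zmat3 at 6.67 and Aen at 6.51 had the lowest means, and the range of Zmat3 overlapped that of Ei24.

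In vehicle kidney Ccng1 was the highest, at 54.2 ± 4.35 CPM per kilobase, and Ei24 the next, at 24.2, without overlap, while Mdm2 at 7.47 and Trp53 at 7.42 could not be separated. Mdm4 had the lowest mean, at 3.38, but its range overlapped that of Phlda3, at 3.99. In oxaliplatin kidney Ccng1 reached 125 ± 4.26, and Phlda3, at 32.6, overlapped with Ei24, at 25.3. Per gene, Trp53, Mdm2, Mdm4 and Ppm1d had their highest levels in marrow and Ccng1, Zmat3, Aen and Ei24 in treated kidney, while Phlda3 in treated kidney and treated marrow, 32.6 and 32.5, could not be separated. RNA of the 2 tissues was extracted by different procedures, so tissue and extraction cannot be told apart in these levels. With the longest transcript in place of all exons as the length, Ccng1 stayed the highest in kidney and in treated marrow and Trp53 in vehicle marrow, but the gene in second place became Mdm2 in vehicle marrow and Ei24 in treated kidney. The lowest gene became Phlda3, at 4.34, in vehicle kidney and Ppm1d, at 7.08, in treated kidney, and Ei24 in vehicle kidney came to 51.1, close to Ccng1 at 54.2.

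**Figure D4:**
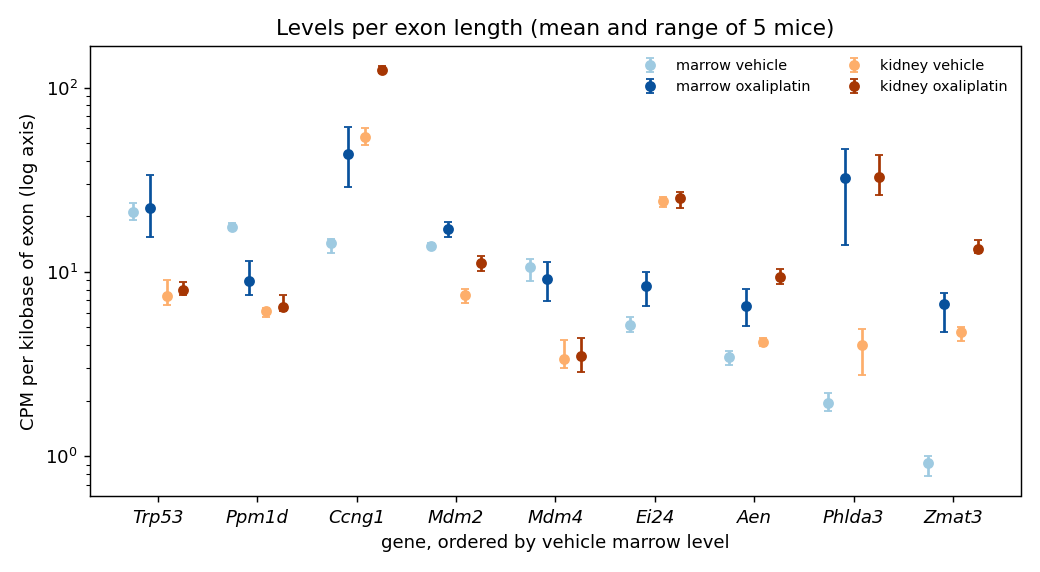
Level of each gene as CPM per kilobase of exon on a log axis, with all libraries on 1 scale; points are means of 5 mice and bars run from the lowest to the highest mouse. In vehicle marrow the levels fall from Trp53, at 21.2, to Zmat3, at 0.920, and in treated kidney Ccng1, at 125, stands above all others.

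Ratios of 2 genes within a library need no scaling between libraries. Reads of Mdm2 per read of Trp53 averaged 0.828 ± 0.0737 in vehicle marrow and 1.06 ± 0.345 in oxaliplatin marrow. The treated marrows ran from 0.635 in mouse 3 to 1.51 in mouse 1 and so lay on both sides of the vehicle range. In kidney the ratio went from 1.28 ± 0.167 to 1.76 ± 0.210, with no overlap, since the highest vehicle kidney was at 1.40 and the lowest treated kidney at 1.44.

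Reads of Mdm2 per read of Mdm4 went from 0.451 ± 0.0471 to 0.656 ± 0.112 in marrow, with no overlap. In kidney they went from 0.770 ± 0.0947 to 1.12 ± 0.185, where the highest vehicle kidney and the lowest treated kidney were both at 0.878. Reads of Mdm2 per read of Ppm1d went from 1.26 ± 0.0747 to 3.14 ± 0.647 in marrow and from 1.96 ± 0.193 to 2.77 ± 0.279 in kidney, with no overlap in either tissue. Both ratios were higher in every treated library than in any vehicle library of the same tissue. All of these ratios are given as a description and were not tested.

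**Figure D5:**
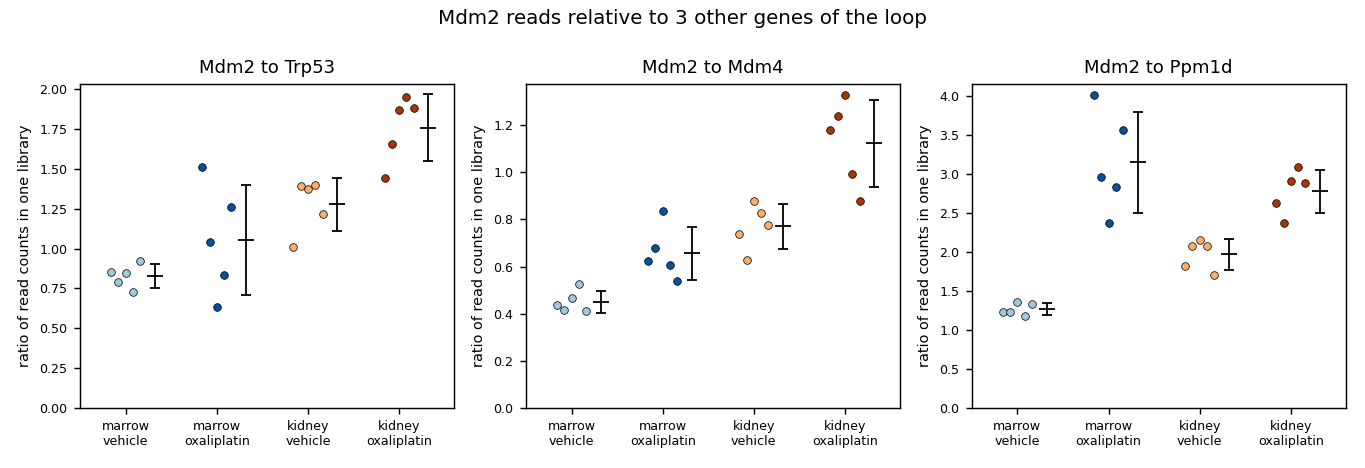
Read counts of Mdm2 divided by those of Trp53, Mdm4 and Ppm1d in the same library, on linear axes from 0; points are single mice and the bar beside them is the mean with its SD (n = 5). The ratio to Trp53 overlaps between groups in marrow, from 0.635 to 1.51 after oxaliplatin, and the ratio to Ppm1d in marrow goes from a mean of 1.26 to 3.14.

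Cdkn1a, the inhibitor of cyclin-dependent kinases through which p53 arrests the cell cycle, gave the scale of the response. It went from 6.08, 6.66, 6.49, 6.41 and 7.18 CPM to 150.2, 146, 153, 151 and 79.2 CPM in marrow, where mouse 5 was again the lowest. That was a 20.7-fold rise (log2 4.37, SE 0.18, adjusted p = 1.3e-08). In kidney it went from 3.04 ± 1.15 to 115 ± 31.8 CPM, a 38.1-fold rise (log2 5.25, SE 0.31, adjusted p = 7.2e-06), and the responses did not differ between tissues at the threshold (difference 0.82, 95% interval 0.16 to 1.48, adjusted p = 0.0564).

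Of 39 other p53 target genes listed by role, 21 were called in marrow, 13 higher and 8 lower, and 18 in kidney, 17 higher and 1 lower, beside the 23.3% and 11.5% of all genes. Their median log2 fold change was 0.18 in marrow and 0.56 in kidney, and the response of 22 of the 39 differed between tissues, beside the 30.1% of all genes. Among 10 cell-cycle arrest targets, 3 rose and 3 fell in marrow and 7 rose in kidney; over all genes tested, 11.6% were called higher and 11.8% lower in marrow, and 7.68% higher and 3.81% lower in kidney. Besides Cdkn1a, the largest changes in this list were those of Plk2, a polo-like kinase, 4.19-fold higher in marrow (adjusted p = 1.4e-05), and Psrc1, a microtubule-binding protein, which went from 4 to 21 counts in vehicle kidneys to 157 to 294 counts in treated kidneys (adjusted p = 7.5e-08).

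Among 12 targets of apoptosis and death-receptor signalling, 5 rose and 2 fell in marrow and 6 rose and 1 fell in kidney, beside the same shares of all genes. Eda2r, a receptor of the tumor necrosis factor family, went from 4 to 19 counts in vehicle marrow to 152 to 445 counts in treated marrow (adjusted p = 2.3e-06), and from 4 to 10 to 217 to 378 counts in kidney (adjusted p = 2.3e-10). Tnfrsf10b, a receptor for the death ligand TRAIL, rose 3.51-fold in marrow (adjusted p = 7.9e-05) and 2.40-fold in kidney (adjusted p = 1.1e-05).

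Among 10 targets in metabolism and stress, 4 rose and 2 fell in marrow, beside 11.6% and 11.8% of all genes, and 4 rose in kidney, beside 7.68%. Ephx1, the microsomal epoxide hydrolase, rose 3.16-fold in marrow (adjusted p = 8.3e-07) and 4.49-fold in kidney (adjusted p = 2.3e-10). Dcxr, a carbonyl reductase, rose 2.73-fold in marrow (adjusted p = 2.0e-05), and Gdf15, a stress cytokine, rose 3.17-fold in kidney (adjusted p = 2.5e-04). Among 7 targets in DNA repair and nucleotide supply, Polk, a polymerase that copies past lesions, rose 1.60-fold in marrow (adjusted p = 3.7e-04) and Polh, another such polymerase, fell 1.65-fold (adjusted p = 2.4e-04), and none was called in kidney, beside the 23.3% of all genes called in marrow and the 11.5% in kidney.

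Of 30 regulators of p53, which activate, modify or partner it, 29 were tested in marrow and 4 called, 13.8% beside the 23.3% of all genes tested. Chek2, a checkpoint kinase that phosphorylates p53, was 1.94-fold lower in marrow (adjusted p = 1.8e-04), and Usp7, a deubiquitinase of Mdm2 and p53, was 1.92-fold lower (adjusted p = 1.9e-05). Cdkn2a, whose ARF product binds Mdm2, went from 2 to 10 counts to 41 to 122 counts (adjusted p = 8.1e-05), and Trp63, a relative of p53, from 0 to 10 counts to 18 to 85 counts (adjusted p = 0.0025). Both were near the floor of detection in vehicle marrow, and their fold changes are therefore not given. In kidney 28 regulators were tested and none was called by edgeR, beside the 11.5% of all genes, or by DESeq2. Of these 28, 7 had an unadjusted p under 0.05 in edgeR's test. An adjusted p under 0.05, with a fold change within 1.5, was reached by 3, while 29.4% of all kidney genes passed at the adjusted p alone. In marrow 11 of the 29 passed at the adjusted p alone, beside 33.1% of all genes, and 15 had an unadjusted p under 0.05.

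Genes whose RNA followed Mdm2 or Ccng1 most closely were ranked by the root mean square difference, over the 20 libraries, of log2 CPM after the vehicle mean of the tissue was subtracted, among 17506 genes tested in both tissues. For Mdm2 the nearest were Setd7, at 0.125, Oxr1, at 0.138, and Mast4, at 0.149, with log2 fold changes of 0.12, 0.15 and 0.28 in marrow and 0.42, 0.39 and 0.51 in kidney. For Ccng1 the nearest were Rhoj, at 0.230, Lrrc32, at 0.247, and Zfp385a, at 0.295, with log2 fold changes of 1.28, 1.56 and 1.12 in marrow and 1.02, 0.93 and 0.92 in kidney. Of the other 8 genes, Aen stood closest to Ccng1, at rank 22, and Phlda3 lay far away, at rank 16476, through its larger rise. The measure reads size as well as direction, so a gene with little change of any kind scores as near to Mdm2.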

How the data were processed

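Whole-tissue RNA was sequenced from marrow and kidney after vehicle or oxaliplatin, 5 libraries per group. Raw read counts by gene were deposited by the authors for each tissue, with no normalization. The methods describe alignment with STAR, counting of uniquely aligned reads in Partek Flow, and a SMARTer library, while the submitters' processing notes also name featureCounts and Salmon and the labels describe ribosomal RNA removal. Strand use is not given in the sources used here, so a gene and its antisense partner were not separated. Of 55774 lines, 1 with a missing value and repeated identifiers were left out, leaving 55486 genes.

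Genes were filtered with filterByExpr (minimum count 10), scaled by TMM and tested with edgeR 4.0.16 (robust quasi-likelihood, R 4.3.3), two-sided, with Benjamini-Hochberg adjustment over all genes tested. CPM per mouse are TMM-scaled within a tissue. Adjusted p values throughout come from this test. Positions and exon lengths came from GENCODE release 21 (GRCm38), which held 55141 of the identifiers. The vehicle and treated mice were taken as separate animals from the labels; whether marrow and kidney of the same number came from 1 mouse is not given.

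The 9 genes and the gene lists were chosen with earlier results of these data known. Named genes were the 9, Cdkn1a, the 2 called genes with the largest absolute log2 fold change per pathway list and tissue, genes whose exons overlap a member, and the 3 genes nearest in pattern to Mdm2 and Ccng1. The floor of 3 counts corresponds to 0.0668 to 0.130 CPM and covers counting error only. Alternatives were DESeq2 1.42.0, its size factors, library size alone, hemoglobin genes left out, other filters and thresholds, a replicate block, a Y-linked covariate and each library left out. The steps were also run on simulated counts, in which few genes were changed and as many rose as fell. That run held no shift of cell types, so it does not check the scaling under such a shift.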

Additional observations from a re-analysis of the deposited data

Results flagged for a closer look

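In 4 of 36 groups of 5 mice, for the 9 genes in 4 groups each, 1 mouse lay far from the other 4 by Dixon's criterion (critical value 0.71), where chance picks about 1 group in 20. Mdm4 stood at 55.4 CPM in kidney vehicle mouse 2, against 38.8 to 42.9 CPM in the others. Ppm1d stood at 20.3 CPM in kidney oxaliplatin mouse 2, against 16.97 to 17.6 CPM. Zmat3 stood at 62.8 CPM in marrow oxaliplatin mouse 5, against 88.5 to 94.5 CPM, and at 151 CPM in kidney oxaliplatin mouse 5, against 126 to 130.5 CPM. The rise of Zmat3 stayed called without either mouse.

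The response to oxaliplatin differed between the tissues by edgeR's interaction test for 5 genes, given as the log2 fold change in kidney minus that in marrow. The difference was 0.27 for Mdm2, 1.05 for Ppm1d, -1.36 for Zmat3, -1.03 for Phlda3 and -0.64 for Ei24. For Zmat3, Ppm1d and Ei24 the call held in all 20 fits that left out 1 library.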

How the results depend on the processing

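The count of the 9 genes called stayed at 6 in marrow and between 4 and 5 in kidney, and at 4 to 5 for the tissue difference, when each library was left out; it was 3 for the tissue difference when every gene with at least 1 count was tested. In marrow it was 5 when tested against a 1.5-fold change and 4 beyond 2-fold, and in kidney 4 under both. Genes called overall ran from 4725 to 5727 in marrow, 1761 to 2424 in kidney and 6495 to 8028 for the tissue difference when libraries were left out. Tested against a 1.5-fold change they numbered 2730 in marrow and 454 in kidney, beyond 2-fold 3231 and 941, and with no fold threshold 5679 in kidney. The near-zero log2 fold change of Trp53 in marrow turned positive with DESeq2 (0.0438), its size factors (0.0439), library size alone (0.15), hemoglobin genes left out (0.034), every gene with at least 1 count (0.00091) and the Y-linked covariate (0.017), and ran from -0.18 to 0.10 with mice left out. Mdm4 in kidney was -0.13 with the Y-linked covariate and ran from -0.034 to 0.16 with mice left out. The Trp53 tissue difference was -0.0054 with that covariate and ran from -0.095 to 0.25. None of these passed the test and the cause was not tested. Mdm2 lost its tissue difference with size factors (adjusted p = 0.0651), every gene with at least 1 count (0.202) and the Y-linked covariate (0.0832); Phlda3 lost its own with every gene with at least 1 count (0.0543), and Aen gained one with at least 10 counts in every sample (0.0262). Library size alone moved the median log2 fold change of all genes from -0.04 to 0.11 in marrow and from 0.02 to 0.16 in kidney, the share of calls that were higher from 49.6% to 63.4% and from 66.8% to 82.7%, and added Mdm2 (log2 0.71) to the kidney calls; a minimum of 10 counts in every sample did so too (0.61). With library size alone, kidney Trp53 (log2 0.25, adjusted p = 0.0368), Ppm1d (0.22, 0.0445) and Ei24 (0.20, 0.0175) also reached an adjusted p under 0.05. Their fold changes stayed within 1.5, so they were not called.

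With the replicate number as a block, 6 of the 9 genes were called in marrow and 4 in kidney, with 4968 and 2017 genes overall. For the tissue difference the block joined the marrow and kidney libraries of the same treatment and number, as if from 1 mouse. In that fit 4 of the 9 genes differed, with 6710 genes overall. The blocks changed 1 call among the 9, the tissue difference of Mdm2 (adjusted p = 0.109, edgeR's quasi-likelihood test). Correlations of same-numbered libraries ran from -0.118 to 0.228 between treatments in marrow, from -0.154 to 0.0754 in kidney, and from -0.0938 to 0.206 between tissues. Different tissues of 1 mouse need not deviate together, so these values cannot decide whether the numbers mark pairs. The numbers were taken as names. Of the levels per kilobase recomputed with library size alone or another gene length, 54 moved by more than 1 SD of the mice and 18 did not.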
